A study of Mus musculus with 6 samples.

Results

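The nuclear genes that encode subunits of the respiratory chain and of ATP synthase were followed in heads of mouse embryos (embryonic day 8.5) with and without deletion of the splicing factor gene Sf3b4 in neural crest cells. Members were the protein-coding genes of the mouse annotation whose symbols start with Nduf (without the Ndufaf assembly factors), Uqcr or Atp5, together with Sdha to Sdhd, Cyc1 and the Cox4 to Cox8 subunits, with at least 60 reads summed over the 6 libraries. Of 87 genes with such a symbol, 81 met the minimum, out of 54532 gene identifiers listed and 14008 genes tested. They comprised 38 genes of complex I, 4 of complex II, 9 of complex III, 13 of complex IV and 17 of complex V. Assignment went by symbol, so Ndufa4, whose protein is now counted with complex IV, and its relative Ndufa4l2 stayed with complex I, and Atp5s, a coupling factor rather than a structural subunit, stayed with complex V.

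The respiratory chain passes electrons from NADH and succinate to oxygen through complexes I to IV, and complexes I, III and IV pump protons across the inner mitochondrial membrane as they do so. Complex V, the ATP synthase, makes ATP as the protons flow back. Most subunits are encoded in the nucleus and imported, and some, among them catalytic subunits of complexes I, III and IV, are encoded by mitochondrial DNA, so the complexes are built from the products of both genomes. Sf3b4 encodes a protein of the SF3B complex, which recognises the branch point of introns.

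The mutant group held 3 pools of Sf3b4 neural crest mutant heads and the wild-type group 3 pools of wild-type heads, with 3 heads in each pool, taken before the heads looked abnormal. The titles of the mutant samples read homozygous null, whereas the genotype entries and the study design name a neural crest mutant; the sources used here do not name the Cre driver or the strain, nor do they say how complete the deletion was. Whole heads were used, so neural crest cells were a part of each pool beside neural tube, mesoderm, ectoderm and vessels, and the labels do not say whether pools came from separate litters. The p-values below measure the spread between these pools.

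Depth was 12251910, 9715400 and 7420956 reads counted in genes in mutant pools 1 to 3, and 10661159, 6930827 and 11797020 in wild-type pools 1 to 3. Member genes took 0.918%, 0.911% and 0.955% of the reads in mutant pools and 0.878%, 0.811% and 0.885% in wild-type pools. Wild-type pool 2 was the shallowest library and held the smallest share. Values are CPM, the read count of a gene scaled to the library total, after TMM scaling of library sizes, and a gene passed when its adjusted p was under 0.05 in edgeR's quasi-likelihood test with Benjamini-Hochberg adjustment over all 14008 genes. Sf3b4 itself had 56.1, 64.2 and 60.9 CPM in mutant pools, against 77.7, 72.8 and 63.9 CPM in wild-type pools. Every mutant pool but 1 lay below all wild-type pools, the exception being mutant pool 2, which lay above wild-type pool 3. The log2 fold change was -0.24 ± 0.0918 (SE, n = 3 each; edgeR adjusted p = 0.128) and did not pass. The labels do not say which part of the gene was deleted and the files give no values per exon.

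Of the 81 subunit genes, 3 rose in mutant heads, none fell and 78 did not pass the edgeR test; over all genes tested, 2.65% rose and 3.88% fell. The count of called members is close to the background share. The 3 genes were Uqcrfs1 of complex III, Cox7a2l of complex IV and Atp5g2 of complex V. Their fold changes were 0.34, 0.35 and 0.31 on the log2 scale. No member was called lower by edgeR, by DESeq2 or by limma-voom, and at an unadjusted edgeR p under 0.05 only Ndufb10 was lower, where 12.2% of all genes were. At the same unadjusted threshold 28 members were higher, where 11% of all genes were.

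Across the family the shift was small and mostly upward. The log2 fold change was above 0 in 73 of 81 members (90.1%), against 50.3% of all genes tested. Its median was 0.15, against 0.00 over all genes tested, a value that the TMM scaling holds near 0. In 38 members every mutant pool lay above every wild-type pool (46.9%, against 13.8% of all genes), and in none did every mutant pool lie below (14.4% of all genes). Summed over the 81 genes, expression was 9230, 9320 and 9600 CPM in mutant pools, against 8680, 7940 and 8990 CPM in wild-type pools, a ratio of means of 1.1. The sums of the 2 groups did not overlap. In bulk heads, a different mix of cells and a different amount of RNA per cell cannot be told apart. For 78 of the 81 genes the 95% interval of the fold change lay within 1.5-fold in either direction. The exceptions were Ndufa4l2, Cox6b2 and Atp5s, which had few reads.

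**Figure D1:**
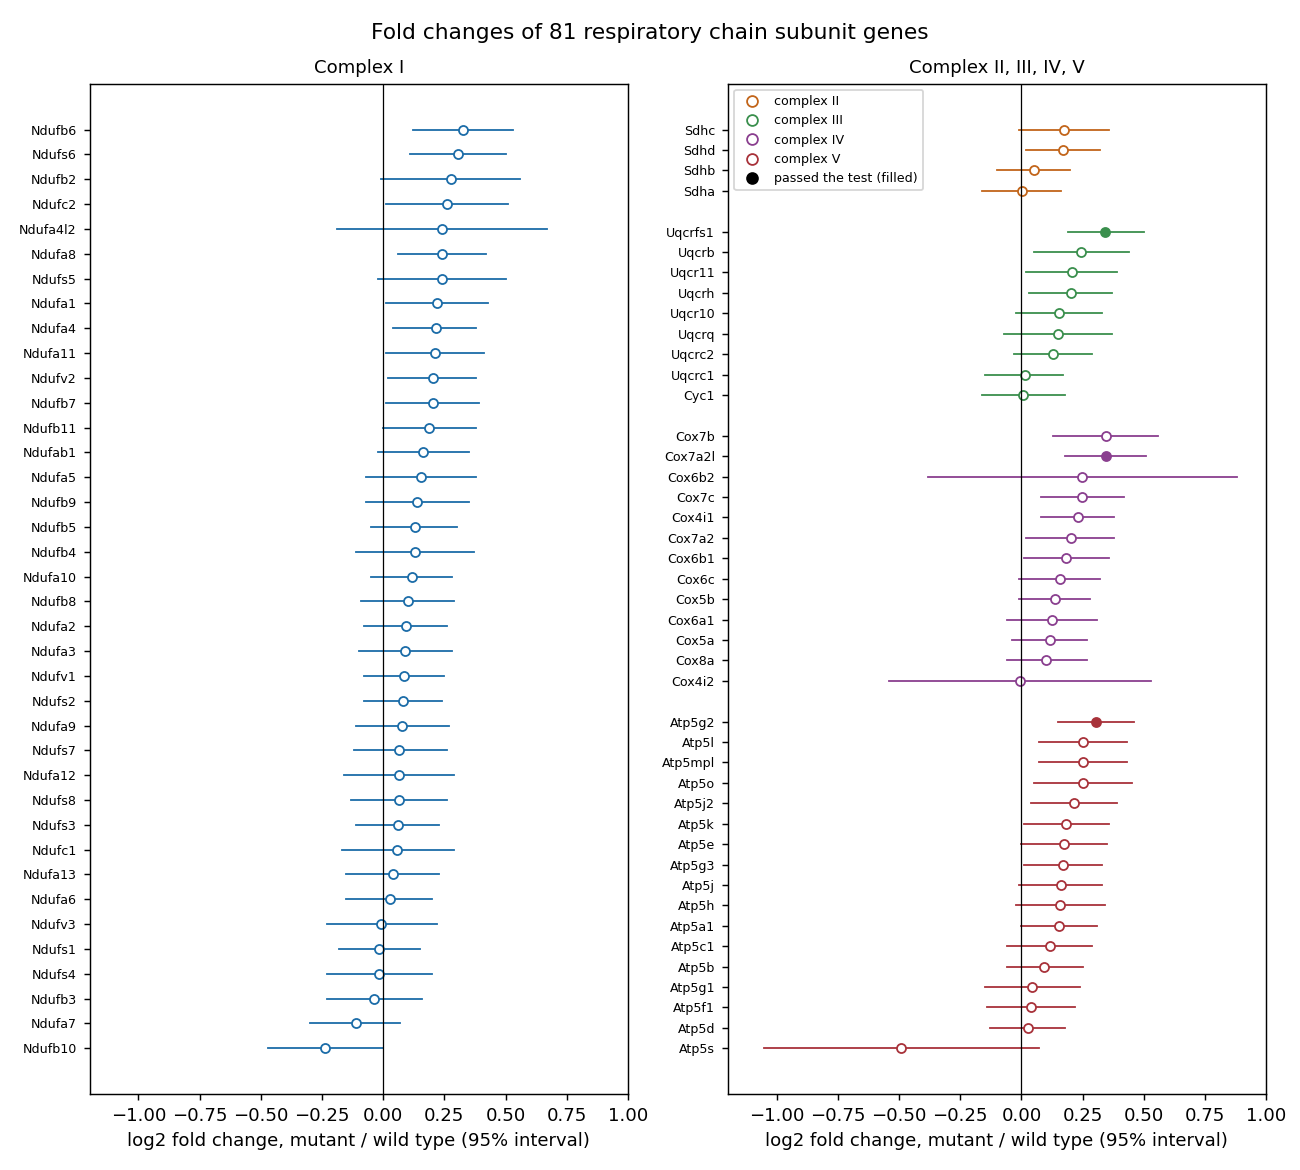
Log2 fold change of mutant over wild-type pools (x axis) for each of the 81 subunit genes (rows), grouped by complex, with 95% intervals from edgeR; filled points passed the test. Most points lie right of 0, and the filled ones are Uqcrfs1, Cox7a2l and Atp5g2.

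The upward shift was not spread evenly over the wild-type pools. Each gene's log2 CPM was set against its mean over the 6 pools, and the median of these deviations over the members was 0.056, 0.067 and 0.096 in mutant pools 1 to 3. In wild-type pools 1 to 3 it was -0.047, -0.157 and 0.002. Wild-type pool 2 was the lowest of the 6 pools in 60 of the 81 genes, and in 21.9% of all genes tested. Mutant pool 3 was the highest in 34 of the 81 and in 16.1% of all genes, and mutant pools 1 and 2 in 13 and 17 of the 81. Wild-type pool 3 was nearer to the mutant pools and was the lowest in 2 members. Without wild-type pool 2 the median log2 fold change of the members was 0.10 and 1 member was called; without wild-type pool 3 it was 0.19 and 13 members were called. By complex, leaving out wild-type pool 3 moved the median of complex I to 0.18, against 0.11 with all pools, and that of complex III to 0.25, against 0.15. Leaving out wild-type pool 2 moved that of complex II to 0.06, against 0.11.

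**Figure D2:**
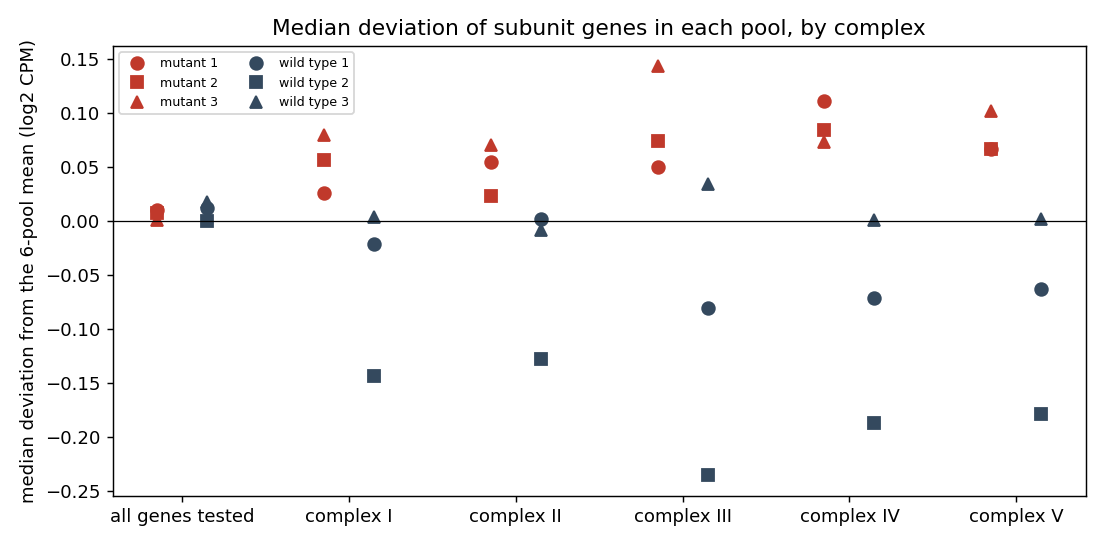
Median deviation of log2 CPM from the 6-pool mean (y axis) in each pool, for all genes tested and for the genes of each complex (x axis); symbols are single pools, mutant left of wild type. Wild-type pool 2 is lowest in all 5 complexes. Over all genes tested the 6 pools lie between 0.000 and 0.018, and TMM scaling itself holds the bulk of genes near 0.

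Gene length moved with the result. The median exon length of the members was 1675 bases, against 4354.5 bases over all genes with a length, and 58 of the 81 fell in the shortest of 5 equal length classes (57 to 2308 bases). In that class the members had a median log2 fold change of 0.16 and the other genes 0.06. Above 0 were 53 of these 58 members and 59.8% of the other genes, against 32.1% of the other genes in the longest class. The share of 50.3% over all genes tested, used for each complex below, is thus lower than that of other short genes. In the next class (2309 to 3616 bases) it was 0.12 for 12 members and 0.05 for the other genes, and in the longest class, from 7594 bases, the other genes had a median of -0.10. Short genes thus stood above long genes over the whole table, and the members stood above other short genes. With each pool's trend on exon length and GC content removed, the median of the members was 0.09. The 3 genes passed again after that correction, and Cox4i1 passed with them. The part of gene length in the shift of the members was otherwise not tested.

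**Figure D3:**
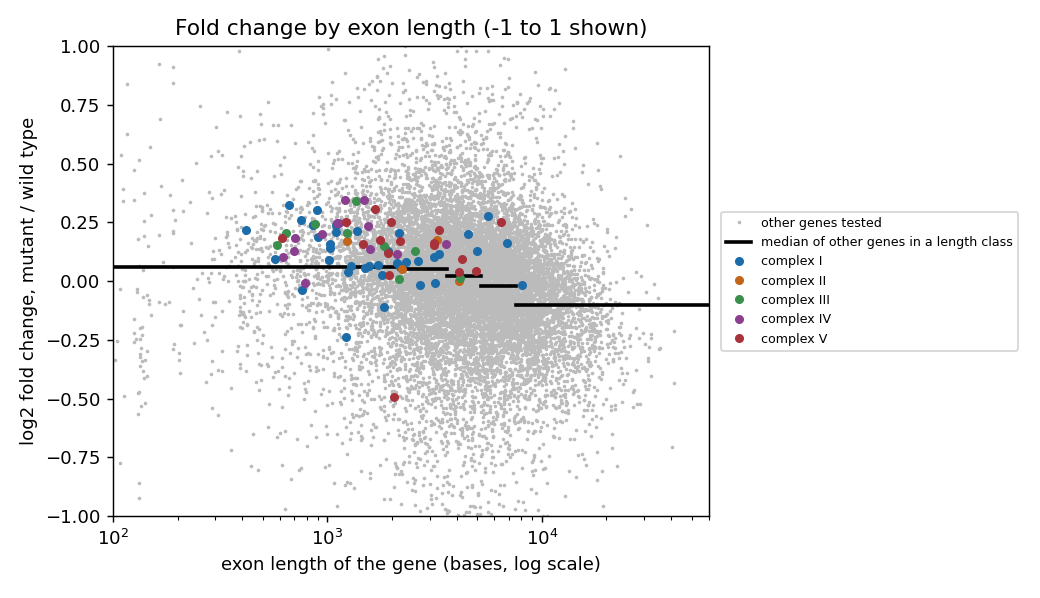
Log2 fold change of mutant over wild-type pools (y axis) against the exon length of each gene (x axis, log scale); grey points are other genes, coloured points the members by complex, black bars the medians of the other genes in 5 length classes. The bars run down from 0.06 in the shortest class to -0.10 in the longest, and most members lie above the bar of their class.

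Among the members themselves, genes with fewer exons tended to have the larger fold change. The number of exons of the principal transcript ran from 2 to 19 with a median of 4, and its Spearman correlation with the log2 fold change was -0.41 over the 81 genes. With transcript length it was -0.40 and with expression level -0.02. These are descriptions across genes that share the same 6 libraries. Uqcrfs1, the gene with the lowest p, has 2 exons, Cox7a2l has 3 and Atp5g2 has 5. The other members with 2 exons, Uqcr10 and Cox8a, were at 0.15 and 0.10. By exon number the median log2 fold change was 0.15 for 2 exons, 0.20 for 3, 0.19 for 4 and 0.12 for 5. The part of gene length in the correlation with exon number was not tested.

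The markers of cell types in these heads also differed between the groups. Summed over 10 neural crest markers, expression was 312 to 353 CPM in mutant pools and 419 to 456 CPM in wild-type pools, and 4 of the 10 fell in the edgeR test, where 3.88% of all genes did. The 9 head mesoderm markers summed to 283 to 306 CPM in mutant pools and 210 to 231 CPM in wild-type pools, and 10 surface ectoderm markers to 622 to 669 CPM in mutant pools and 502 to 547 CPM in wild-type pools. Of these, 4 of 8 mesoderm markers tested and 2 of 10 ectoderm markers rose, where 2.65% of all genes did. These 3 sums did not overlap between the groups, nor did that of 8 endothelial markers (286 to 300 CPM in mutant pools, 240 to 267 CPM in wild-type pools), of which 1 rose. The 9 neural tube markers summed to 546 to 598 CPM in mutant pools and 587 to 615 CPM in wild-type pools, with a small overlap. Of these 9, 2 fell, but 5 had a log2 fold change above 0 and the median was 0.01. Heart muscle is a tissue rich in mitochondria. Its markers summed to 98.2, 71.9 and 80.4 CPM in mutant pools and to 194, 168 and 48.2 CPM in wild-type pools. The groups overlapped through wild-type pool 3 alone. Of 9 heart markers tested, 1 had a log2 fold change above 0, the median was -0.48 and none passed. Primitive erythroid markers ranged over 81.5 to 176 CPM in mutant pools and 108 to 271 CPM in wild-type pools, with Hba-a2 listed at 0. None of the 7 erythroid markers tested was above 0, the median was -0.54 and none passed. The 7 foregut and extraembryonic endoderm markers ranged over 21.3 to 28 CPM in mutant pools and 21.7 to 22.2 CPM in wild-type pools. The part of these differences in the values of the subunit genes was not tested.

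Complex I oxidises NADH. None of its 38 genes passed. The median log2 fold change was 0.11, and 32 were above 0 (84.2%, against 50.3% of all genes tested). In 13 every mutant pool lay above every wild-type pool (34.2%, against 13.8% of all genes). Ndufb6, a subunit of the membrane arm, had 47, 52 and 46.9 CPM in mutant pools, against 35.1, 38.8 and 42.4 CPM in wild-type pools. The groups did not overlap, and the log2 fold change of 0.33 ± 0.0956 (SE) missed the threshold with an edgeR adjusted p of 0.0527. Ndufb6 shares 39% of its exonic bases with Smim27 on the other strand, and whether counting used strand is not given, so its value is uncertain. Ndufs6, a zinc-binding subunit, had 49, 57.9 and 53.1 CPM in mutant pools and 42, 40.8 and 46.2 CPM in wild-type pools, again without overlap (0.30 ± 0.0932, edgeR adjusted p = 0.0629). Of 18 alternatives to the main fit, 4 called Ndufb6 and 3 called Ndufs6.

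The 7 core subunits, which carry the flavin and the iron-sulfur clusters, had a median of 0.07, and the other 31 genes a median of 0.13. Among the core subunits Ndufv2 had the highest value, at 0.20 (0.08 with the length and GC correction), and Ndufs1, the largest of them, the lowest, at -0.02; Ndufv1, which binds NADH, was at 0.08. At the lower end of the complex stood Ndufb10, with 29.1, 31.8 and 36 CPM in mutant pools and 41.8, 32.5 and 38.6 CPM in wild-type pools. Its groups overlapped and the log2 fold change of -0.24 ± 0.111 did not pass (edgeR adjusted p = 0.215). Ndufa7 was at -0.11, and Ndufb3, Ndufs4, Ndufs1 and Ndufv3 lay between -0.04 and -0.01. Ndufa4 was the most abundant gene of the complex per length, at 229 CPM per kilobase of transcript over both groups, with 144, 154 and 152 CPM in mutant pools and 126, 118 and 143 CPM in wild-type pools. Mutant pools were all higher, by a log2 fold change of 0.21 that did not pass (edgeR adjusted p = 0.127). With the length and GC correction it was at 0.05 (edgeR adjusted p = 0.731). Ndufa7 and Ndufb8 came next at 181 and 116 CPM per kilobase.

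Complex II, succinate dehydrogenase, is also an enzyme of the tricarboxylic acid cycle and has no subunit from mitochondrial DNA. None of its 4 genes passed. Sdha, the flavoprotein that oxidises succinate, had 186, 193 and 202 CPM in mutant pools and 190, 182 and 207 CPM in wild-type pools. The groups overlapped throughout, and the interval of the log2 fold change, 0.00, ran from -0.16 to 0.16. Sdhb, the iron-sulfur subunit, was at 0.05 (interval -0.10 to 0.20). The membrane anchors stood higher, with Sdhc at 0.18 (interval -0.01 to 0.36) and Sdhd at 0.17 (interval 0.02 to 0.32), and in both all mutant pools were above all wild-type pools. With the length and GC correction Sdhc was at 0.14, Sdhd at 0.09 and Sdhb at 0.02. The difference between the anchors and the catalytic subunits was not tested.

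Complex III hands electrons from ubiquinol to cytochrome c. All 9 of its genes had a log2 fold change above 0, where 50.3% of all genes tested did. The median was 0.15, and 1 gene passed. Uqcrfs1 (chromosome 13, 30540308 to 30545362, minus strand, GRCm38) encodes the Rieske iron-sulfur protein, which is added late in the assembly of the complex. It had 114, 109 and 108 CPM in mutant pools, against 87.5, 83.2 and 90.9 CPM in wild-type pools. All mutant pools were above all wild-type pools, by more than the spread within either group. Uqcrfs1 rose by a log2 fold change of 0.34 ± 0.073 (SE, n = 3 each), a ratio of fitted levels of 1.27, with an interval of 0.19 to 0.50 and an edgeR adjusted p of 0.012. It was called in 17 of 18 alternatives, with adjusted p from 0.00308 to 0.102, and was lost without mutant pool 1. By contrast Cyc1, the cytochrome c1 that accepts the electron from the Rieske protein, had 116, 127 and 134 CPM in mutant pools and 131, 115 and 128 CPM in wild-type pools. Its groups overlapped and its interval ran from -0.16 to 0.18. The core protein Uqcrc1 was at 0.01 (interval -0.15 to 0.17), whereas the small subunit Uqcrb and the hinge protein Uqcrh were at 0.24 and 0.20 (edgeR adjusted p = 0.127 and 0.138) with all mutant pools higher. With the length and GC correction Uqcrb was at 0.08 (edgeR adjusted p = 0.554) and Uqcrh at 0.11 (edgeR adjusted p = 0.314), beside Cyc1 at 0.02 and Uqcrc1 at 0.03, while Uqcrfs1 passed at 0.26 (edgeR adjusted p = 0.0119).

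Complex IV, cytochrome c oxidase, reduces oxygen to water. Its 13 genes had a median log2 fold change of 0.18, and 12 were above 0 (92.3%, against 50.3% of all genes tested). In 7 all mutant pools lay above all wild-type pools (53.8%, against 13.8% of all genes), and 1 passed. The complex summed to 1460, 1470 and 1460 CPM in mutant pools and 1270, 1180 and 1340 CPM in wild-type pools, a ratio of means of 1.15. Cox7a2l (chromosome 17, 83501918 to 83517330, minus strand, GRCm38) is related to the Cox7a subunits. A role in joining complexes III and IV in supercomplexes has been described for it and was not examined here. Cox7a2l had 105, 101 and 105 CPM in mutant pools, against 84.4, 74.9 and 85.2 CPM in wild-type pools. The groups were well apart, and wild-type pool 2 was the lowest. Cox7a2l rose by 0.35 ± 0.077 on the log2 scale (SE, n = 3 each; edgeR adjusted p = 0.0147), with an interval of 0.18 to 0.51. It was called in 15 of 18 alternatives, and was lost without mutant pool 1, mutant pool 3 or wild-type pool 2, with adjusted p up to 0.0998.

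Further genes of complex IV came near the threshold. Cox7b, an X-linked small subunit, had 148, 179 and 142 CPM in mutant pools and 116, 113 and 140 CPM in wild-type pools. Mutant pool 3 lay barely above wild-type pool 3, and the log2 fold change of 0.35 ± 0.101 did not pass (edgeR adjusted p = 0.0589). Cox4i1, the main form of the regulatory subunit and the most abundant gene of the complex per length at 310 CPM per kilobase, had 251, 244 and 255 CPM in mutant pools and 223, 202 and 212 CPM in wild-type pools. All mutant pools were higher, by 0.23 ± 0.0711 (edgeR adjusted p = 0.0623). Cox6b1, next in level at 234 CPM per kilobase, was at 0.18 (interval 0.01 to 0.36) and Cox7c, a small membrane subunit, at 0.25 (interval 0.08 to 0.42); Cox7a2, Cox6c, Cox5b, Cox6a1, Cox5a and Cox8a lay between 0.10 and 0.20. With the length and GC correction Cox7c was at 0.05 (edgeR adjusted p = 0.73), Cox7b at 0.21 (edgeR adjusted p = 0.106), Cox5b at 0.06 and Cox5a at -0.01, whereas Cox4i1 was at 0.21 and passed (edgeR adjusted p = 0.0327). Over all 18 alternatives Cox7b was called in 6, Cox4i1 in 4 and Cox7c in 2.

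**Figure D4:**
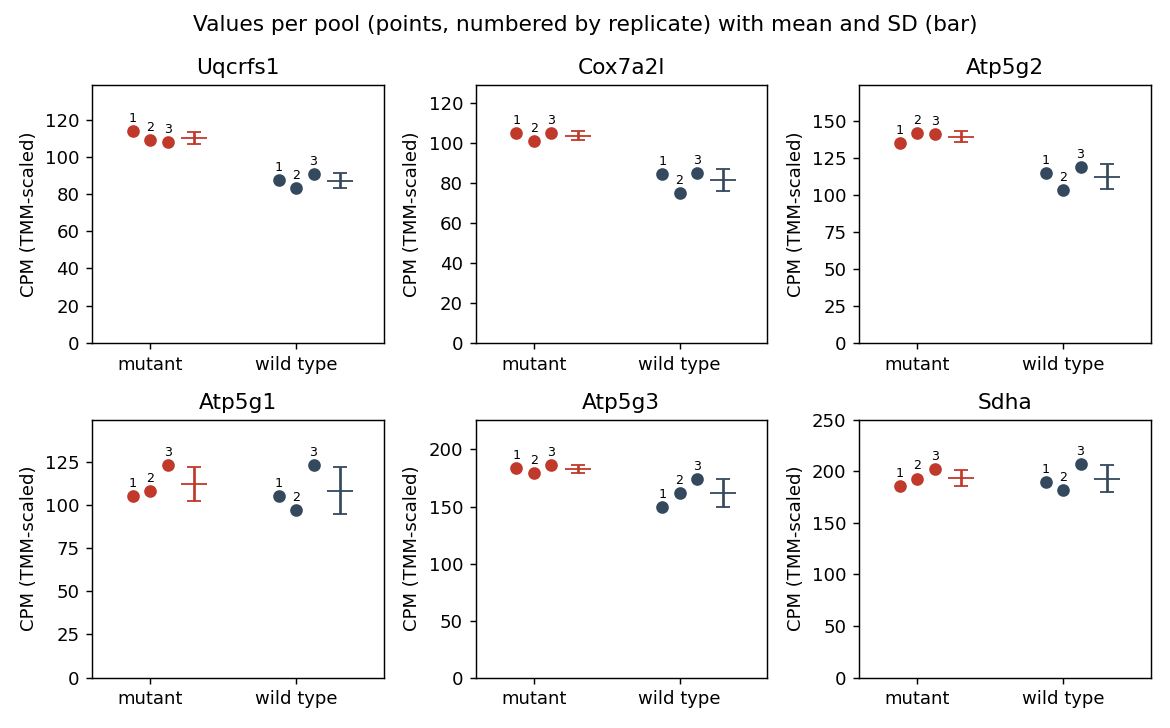
CPM (y axis, from 0) in each pool, numbered by replicate, with mean and SD, mutant left of wild type, for the 3 genes that passed (top row: Uqcrfs1, Cox7a2l, Atp5g2) and for Atp5g1, Atp5g3 and Sdha (bottom row). In the top row all mutant pools lie above all wild-type pools; Atp5g1 and Sdha overlap.

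Complex IV has tissue-specific forms of several subunits, and the forms found in most tissues made up nearly all transcripts in both groups. Cox4i2, the form induced by low oxygen, made 2 ± 0.427% of Cox4i transcripts per length in mutant pools and 2.29 ± 0.684% in wild-type pools (SD, n = 3 each). Cox6b2, known from testis, made 2.25 ± 0.858% in mutant pools and 2.28 ± 0.469% in wild-type pools. The muscle forms were at or near the floor: Cox7a1 had 55 reads over the 6 pools, Cox6a2 had 2 and Cox8b had 0. Cox7b2 had 1 read and Cox8c had 0, and these 5, with a further Atp5o identifier at 0, are the genes that missed the count minimum. The lowest members just inside were Cox6b2, with 150 reads, and Atp5s, with 201. Ndufa4l2 made 2.49 ± 0.0466% of the Ndufa4 pair in mutant pools and 2.41 ± 0.551% in wild-type pools. Shares of these minor forms overlapped between the groups.

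Complex V had a median log2 fold change of 0.16, with 16 of 17 genes above 0 (94.1%, against 50.3% of all genes tested). In 11 all mutant pools were higher (64.7%, against 13.8% of all genes), and 1 passed. The 5 subunits of the catalytic head had a median of 0.12 and the other 12 genes 0.18. Atp5b, the catalytic beta subunit, was the most abundant member per length, at 664 CPM per kilobase, and had 1290, 1290 and 1360 CPM in mutant pools and 1280, 1140 and 1270 CPM in wild-type pools. Mutant pools were all higher but only just, by 0.09 (interval -0.06 to 0.25). Atp5a1, the alpha subunit, had 893, 903 and 952 CPM in mutant pools and 859, 771 and 841 CPM in wild-type pools (0.15, interval -0.00 to 0.31). Atp5mpl, a small proteolipid of the membrane part, had 77.7, 74.4 and 71.6 CPM in mutant pools and 63.2, 57.6 and 67 CPM in wild-type pools, without overlap (0.25, edgeR adjusted p = 0.0863). Atp5o, the subunit that ties the stalk to the head, was also at 0.25 (edgeR adjusted p = 0.121), but shares 47.9% of its exonic bases with other genes. Atp5s had the lowest fold change of all members at -0.49, with 3.12, 2.95 and 2.3 CPM in mutant pools and 2.78, 3.96 and 5.17 CPM in wild-type pools. Its groups overlapped and it did not pass (edgeR adjusted p = 0.284).

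The ring of c subunits that turns as protons pass is encoded by 3 genes that make the same mature protein behind different import signals. Atp5g2 (chromosome 15, 102662864 to 102672352, minus strand, GRCm38) had 135, 142 and 141 CPM in mutant pools, against 115, 103 and 119 CPM in wild-type pools. All mutant pools were higher, and wild-type pool 2 was the lowest. Atp5g2 rose by 0.31 ± 0.0749 on the log2 scale (SE, n = 3 each; edgeR adjusted p = 0.0243). It was called in 13 of 18 alternatives, and was lost without any of mutant pools 1, 2 and 3, without wild-type pool 2, and among the 4 pools that had Y-linked reads, with adjusted p up to 0.101. Atp5g3 had 184, 179 and 186 CPM in mutant pools and 150, 162 and 174 CPM in wild-type pools (0.17, edgeR adjusted p = 0.181; 0.11 with the length and GC correction), and Atp5g1 had 105, 108 and 123 CPM in mutant pools and 105, 96.8 and 123 CPM in wild-type pools (0.04, edgeR adjusted p = 0.811). Mutant pools were all higher for Atp5g3 and overlapped with wild-type pools for Atp5g1. Of the c-subunit transcripts per length, Atp5g2 made 29.8%, 31% and 29.2% in mutant pools and 28.9%, 26.6% and 26.6% in wild-type pools. Atp5g1 made 29.6 ± 1.44% in mutant pools and 32.2 ± 1.54% in wild-type pools, and Atp5g3 40.4 ± 1.11% in mutant pools and 40.4 ± 2.11% in wild-type pools.

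The coding ends of the 3 c-subunit genes are shown because they bear on whether reads can be told apart between copies. Each line gives the last 228 coding bases with the stop codon, from GENCODE M21 transcripts; capitals mark positions that are not the same in all 3. 
Atp5g1: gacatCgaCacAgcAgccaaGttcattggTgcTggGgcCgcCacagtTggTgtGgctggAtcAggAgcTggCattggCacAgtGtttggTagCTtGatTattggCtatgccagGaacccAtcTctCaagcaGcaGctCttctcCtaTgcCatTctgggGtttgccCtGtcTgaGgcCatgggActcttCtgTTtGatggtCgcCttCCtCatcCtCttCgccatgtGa
Atp5g2: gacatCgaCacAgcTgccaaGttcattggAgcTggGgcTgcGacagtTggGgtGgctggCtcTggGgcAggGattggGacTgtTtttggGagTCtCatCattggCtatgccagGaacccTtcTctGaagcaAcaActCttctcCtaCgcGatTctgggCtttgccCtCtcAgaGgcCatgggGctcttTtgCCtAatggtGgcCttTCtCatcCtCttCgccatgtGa
Atp5g3: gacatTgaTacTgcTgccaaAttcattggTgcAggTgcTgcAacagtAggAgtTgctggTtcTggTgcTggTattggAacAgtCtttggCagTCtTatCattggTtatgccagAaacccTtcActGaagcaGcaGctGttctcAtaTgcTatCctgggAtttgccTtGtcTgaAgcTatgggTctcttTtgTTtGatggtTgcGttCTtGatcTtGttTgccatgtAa
The stretches differ at 58 of the 228 positions, yet all 76 codons have the same meaning in the 3 genes, 23 of them with the same letters. Atp5g2 was identical to Atp5g1 at 85.1% and to Atp5g3 at 78.5% of the positions. The longest run of letters that the whole transcripts share was 21 bases between Atp5g2 and Atp5g1, 9 between Atp5g2 and Atp5g3 and 11 between Atp5g1 and Atp5g3, so differences were spaced closely along the genes. Processed pseudogenes with member-like symbols held few reads: 12 of them had 45 reads in all over the 6 pools, and at most 8 each. None of these 12 has an Atp5g, Uqcrfs1 or Cox7a2l symbol. Copies with other names were not counted, so these reads do not bear on Atp5g2.

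Across the family the level of transcripts per length ranged from 2.28 CPM per kilobase for Atp5s to 664 for Atp5b, with a median of 84.8. By complex the medians were 54.6 for complex I, 80.3 for complex II, 125 for complex III, 173 for complex IV and 172 for complex V. Complex III was led by Uqcrh with 262 CPM per kilobase and complex II by Sdhd with 96.7. Uqcrfs1 was the lowest of the 9 genes of complex III, at 81.1 ± 2.19 CPM per kilobase in mutant pools and 64 ± 2.84 in wild-type pools (SD, n = 3 each). Levels were divided by the length of the principal transcript; their Spearman correlation with levels divided by the length of all exons was 0.76 over the 81 genes, so places in this order depend on the choice of length.

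**Figure D5:**
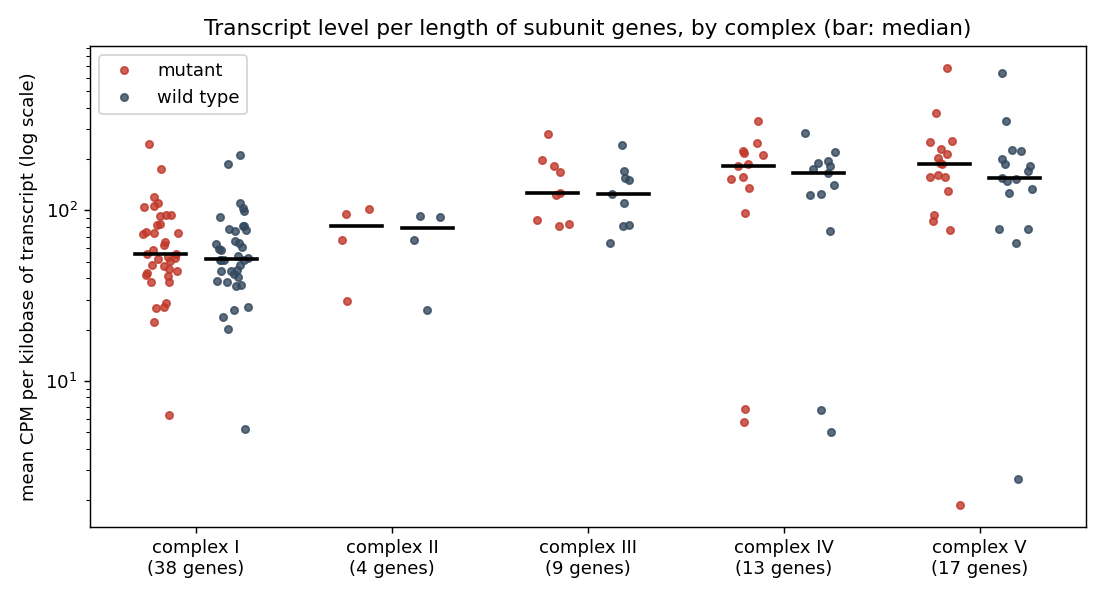
Mean CPM per kilobase of principal transcript (y axis, log scale) of each subunit gene, by complex (x axis), mutant left of wild type, with bars at the medians. Genes of complexes III, IV and V sit higher than most of complex I, and the minor forms Cox4i2, Cox6b2 and Ndufa4l2 and the coupling factor Atp5s lie far below the rest.

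Promoters of many of these genes are known to carry sites for NRF1, for ETS-family factors such as GABP, and for YY1. RefSeq promoter windows on GRCm38.p6, from 250 bases before to 50 after the start, were matched for 66 of the 81 members and gave 71 windows. On either strand, the NRF1 letters (GCGCA, any base, then GCGC) were found in 25.4% of the member windows and in 4.6% of all 32851 windows. The ETS letters CCGGAAG were found in 22.5% of member windows and 8.9% of all, and the YY1 letters AAGATGGCG in 9.9% of member windows and 1.4% of all. The windows of members were richer in G and C, with a median of 58.3% against 52.7%. Of the 3 genes that rose, Atp5g2 had an NRF1 match, and Uqcrfs1 and Cox7a2l matched none of the 3 sets of letters in these windows. The NRF1 matches of Atp5g2 and of the 4 members with both NRF1 and ETS letters are shown with 10 bases on each side, on the minus strand of GRCm38.p6, with the first match of each window in capitals. 
Atp5g2: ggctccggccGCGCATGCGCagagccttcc
Atp5h: gaccccgacgGCGCAGGCGCcgcgcccgcc
Atp5k: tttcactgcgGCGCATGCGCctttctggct
Cox6a1: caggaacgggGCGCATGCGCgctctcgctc
Sdhd: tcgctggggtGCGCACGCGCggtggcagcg
They lie at chr15:102671070-102671099, chr11:115420041-115420070, chr5:108434430-108434459, chr5:115349101-115349130 and chr9:50603909-50603938. The last of these genes, Sdhd, was at a log2 fold change of 0.17, Atp5h at 0.16 (0.07 with the length and GC correction), Atp5k at 0.18 and Cox6a1 at 0.13, and none of these 4 passed. A match of letters describes the sequence and is not evidence of binding.

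Genes that build and supply the chain were read from lists of assembly factors, carriers, mitochondrial ribosomal proteins, import proteins, tricarboxylic acid cycle enzymes, mitochondrial DNA maintenance and regulators. Of 227 genes tested on these lists, 3 rose, 3 fell and 221 did not pass; 6.52% of all genes tested passed in either direction. The median log2 fold change was 0.08 and 67.4% of the genes were above 0. Mrpl11, a protein of the large mitochondrial ribosomal subunit, had 98, 98.4 and 104 CPM in mutant pools and 77.4, 70.4 and 80.2 CPM in wild-type pools. The groups were apart and Mrpl11 rose by 0.39 ± 0.0777 (SE; edgeR adjusted p = 0.00732), a call kept in all 18 alternatives. Mrpl9 of the same subunit rose by 0.34 (edgeR adjusted p = 0.015) and was lost without mutant pool 1, 2 or 3. Timm10, an import chaperone of the intermembrane space, rose by 0.34 (edgeR adjusted p = 0.0403) and was called in 8 of 18 alternatives.

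Those that fell were Coa3, Pprc1 and Hcfc1. Coa3, an assembly factor of complex IV, had 37.5, 37.5 and 44 CPM in mutant pools and 50.9, 47.5 and 53.9 CPM in wild-type pools. It fell by 0.37 on the log2 scale with no overlap (edgeR adjusted p = 0.032), the opposite direction to the median of complex IV subunits, and was called in 13 of 18 alternatives. Pprc1, a coactivator of NRF1, had 109, 125 and 108 CPM in mutant pools and 150, 158 and 129 CPM in wild-type pools. It fell by 0.35 (edgeR adjusted p = 0.025), and was called in 14 of 18 alternatives. Hcfc1, a chromatin-bound coregulator on the X chromosome, fell by 0.30 (edgeR adjusted p = 0.033), was called in 12 of 18 alternatives, and was lost with the replicate block and with the length and GC correction. Large mitochondrial ribosomal proteins had 2 of 48 genes up and a median of 0.09, and import proteins 1 of 34 up and a median of 0.10. Complex IV assembly factors had 1 of 22 down and a median of 0.14, and regulators 2 of 15 down and a median of -0.07. These counts stand beside 2.65% of all genes tested that rose and 3.88% that fell. On the other lists none passed. Their medians were 0.08 for 29 small mitochondrial ribosomal proteins, 0.08 for 15 genes of mitochondrial DNA, 0.04 for 18 cycle enzymes, -0.04 for 16 genes of carriers and ubiquinone synthesis, 0.06 for 15 complex I assembly factors, 0.36 for 4 of complex II, 0.02 for 6 of complex III and 0.05 for 5 of complex V.

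Other listed genes came near the threshold or passed in some alternatives. Ndufaf4, a complex I assembly factor, had 74.2, 71.6 and 67.4 CPM in mutant pools and 37.8, 60.6 and 60.5 CPM in wild-type pools, and wild-type pool 1 stood apart below the rest (0.43, edgeR adjusted p = 0.149). With the length and GC correction it was at 0.34 and passed (edgeR adjusted p = 0.0173). Of the cycle enzymes, Idh3b was at 0.23 and Idh2 at -0.24 (edgeR adjusted p = 0.0736 and 0.0774). Isocitrate dehydrogenases of the same compartment thus lay on opposite sides of 0. Idh2 passed in 3 of 18 alternatives, among them the length and GC correction (edgeR adjusted p = 0.0185), and Idh3b passed in 2. All 37 genes of the mitochondrial genome are listed at 0 in every pool, so the subunits they encode were not analysed here. Ndufb1-ps, annotated as a noncoding RNA from a shared promoter, had 1714 reads and a log2 fold change of 0.16 (edgeR adjusted p = 0.437).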

How the data were processed

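Per the labels' protocols, head RNA (Qiagen micro kit) went into Illumina TruSeq total RNA libraries. The authors deposited a table of unnormalized read counts by gene for each pool. The submitters' processing notes name mm10, with aligner, counting program, annotation and strand setting not given in the sources used here. Of 54532 identifiers, 54495 matched GENCODE M21 (GRCm38), which gave symbols, types, lengths and overlaps; 10 members overlapped other genes over more than 10% of their exonic length, 9 on the opposite strand. Counts were filtered with filterByExpr, scaled by TMM and fitted with edgeR 4.0.16 (glmQLFit, robust; glmQLFTest, two-sided; Benjamini-Hochberg, 0.05). All 81 members passed the filter. SE is the log2 fold change divided by the square root of F; intervals are 95%. CPM per kilobase uses the APPRIS principal transcript. Deviations of pools used log2 CPM with a prior count of 2. Members, lists and alternatives were chosen with earlier results of these data known. Named genes were those that passed, the 3 most abundant and the 2 with the lowest p in each complex, complex II, paralog sets and up to 3 genes per list; others, and the promoter letters, were chosen after values were seen. The fit was tested on simulated data. Alternatives were DESeq2 1.42.0, limma-voom 3.58.1, 3 other scalings, 2 other filters, no robust estimation, the replicate block, each pool left out, a length and GC correction, and Y-linked reads as a covariate or as a choice of pools; for counts of members, also no count minimum and no overlapping genes. R was 4.3.3.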

Additional observations from a re-analysis of the deposited data

How the results depend on the processing

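All 3 members that rose were also called with limma-voom, RLE factors, library size alone, no robust estimation and the length and GC correction. The stricter filter gave the same values as the main fit, so its calls, counted among the 18 alternatives, are no separate check. The number of members higher was 5 with DESeq2, 5 with upper-quartile factors, 6 with all genes that had a count and 10 with the Y-linked covariate, and ranged from 0 (without mutant pool 1) to 13 (without wild-type pool 3) when single pools were left out; the cause was not tested. Members lower stayed at 0 in all 20 settings. Over all genes, 914 passed, against 535 among the pools that had Y-linked reads, 1644 with the covariate, and 230 to 1810 when single pools were left out. Of the pathway genes 6 passed, against 11 with the length and GC correction, 3 among those pools, 13 with the covariate, and 1 to 25 when single pools were left out. The length and GC correction lowered the median of the members to 0.09 and that of every complex. For complexes I to V it was 0.07, 0.06, 0.09, 0.12 and 0.11, against 0.11, 0.11, 0.15, 0.18 and 0.16 in the main fit. Length and GC content were not corrected apart, and the cause was not tested. When single pools were left out the median ran from 0.08 to 0.18 in complex I, 0.06 to 0.13 in complex II and 0.12 to 0.25 in complex III. Sf3b4 passed with that correction (-0.26, edgeR adjusted p = 0.046) and without wild-type pool 3 (-0.32, edgeR adjusted p = 0.0288), its log2 fold change ran from -0.32 to -0.17 when single pools were left out, with adjusted p from 0.0288 to 0.441 over the 18 alternatives. Replicate numbers did not pair the pools (correlations of deviations -0.16, 0.05 and -0.06), and with the replicate block 3 members were called, the same 3 genes. With 3 pools a group, the median half-width of the 95% intervals was 0.18 on the log2 scale, which limits what can be said of single genes.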

Other observations

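Y-linked reads came to 580, 491 and 1 in mutant pools 1 to 3 and to 1, 344 and 664 in wild-type pools 1 to 3, so each genotype held 1 pool nearly without them. Within the 4 pools that had them, the median log2 fold change of the 81 subunit genes was 0.13, and 2 members, Cox7a2l and Uqcrfs1, were called.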
